A study of Mus musculus with 12 samples.

Results

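Branched-chain amino acid catabolism was followed through 9 of its genes in mouse leukaemia cells that had lost Riok2. The 9 genes were chosen by symbol from the 24221 genes of the authors' deposited table, by their place in the pathway and with earlier results of these data known, among them the steep fall of Bcat1. The values of the comparison are therefore given as a description and support no statement about the pathway as a whole. The cells are acute myeloid leukaemia cells of strain C57BL/6 that carry MLL-AF9, a fusion oncogene found in acute leukaemia. Riok2fl/fl cells, whose Riok2 alleles are flanked by recombination sites, were given hydroxytamoxifen (OHT), and the same cells with its vehicle ethanol (EtOH) were the comparison, with 3 samples in each group taken 72 h after the addition. MLL-AF9 cells given a RIOK2 inhibitor at 1 µM, and MLL-AF9 cells given DMSO, make up the other 6 of the 12 samples in the labels and are not analysed here. The labels name neither the Cre that OHT acts on nor the dose of OHT, and all cells compared carry both the floxed alleles and MLL-AF9. They do not say that replicates were separate cultures, and the spread behind the p-values may be technical.

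Leucine, isoleucine and valine are broken down by one shared route before their paths part. Branched-chain aminotransferases, BCAT1 in the cytosol and BCAT2 in mitochondria, move the amino group to 2-oxoglutarate and give branched-chain ketoacids and glutamate, a reaction that also runs backwards. The branched-chain ketoacid dehydrogenase complex then commits the ketoacids to oxidation, and it is switched off by the kinase BCKDK and on by the phosphatase PPM1K. BCAT1 is known for its high expression in human and mouse myeloid leukaemias, where its activity has been tied to leukaemia growth and to the level of 2-oxoglutarate.

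Each gene has 1 base mean (normalised reads averaged over the libraries), 1 log2 fold change with its standard error (SE) and 1 adjusted p-value in the authors' deposited table, which has 0 columns of values per sample. A positive fold means higher in OHT, a reading that rests on Riok2 itself. Riok2, the targeted gene, had a log2 fold of -3.60 ± 0.20 (authors' SE, as after every ± here) in the authors' deposited table. Low base means are sums of whole reads divided by size factors, and they showed 6 libraries, with size factors of 1.88, 1.01 and 0.697 on the OHT side and 1.11, 0.870 and 0.783 on the EtOH side. Base means summed to 20307732 normalised reads. The OHT library with the size factor of 0.697 stood apart. Over the 4645 genes at or under a base mean of 5, 187 had 5 reads or more and most of their normalised reads in it, beside 85 and 44 genes for the other OHT libraries and 25, 12 and 15 for the EtOH libraries. All 9 catabolism genes lie above that limit, so their values per library could not be recovered, and the part of this library in their folds was not tested.

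Most of the shared route fell after OHT. Of the 9 genes, 7 fell, 0 rose and 2 did not pass an adjusted p of 0.05 in the authors' deposited table, with a median log2 fold change of -0.65. Over all 13814 genes tested there, 23.4% fell, 25.5% rose and 48.9% passed in either direction, and the median log2 fold change was 0.050. With the base mean at 90 or more, a limit set after seeing that all 9 lie above it, 29.9% fell. The 9 genes were picked with such values known, so the count is not evidence for the pathway. In bulk RNA, fewer cells of a type and less RNA per cell cannot be told apart.

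**Figure D1:**
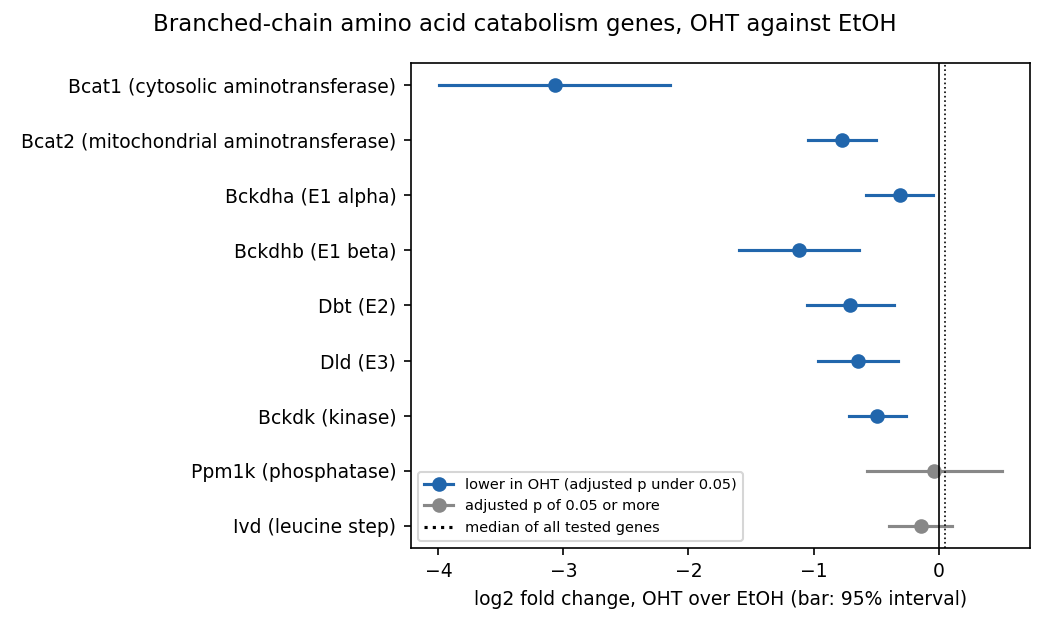
Log2 fold change of OHT over EtOH for the 9 catabolism genes, one row per gene with its role. Points are the values of the authors' deposited table, bars the 95% intervals from its standard errors, and the dotted line the median of all tested genes at 0.050. Bcat1 lies far to the left at -3.07, 6 further genes lie below 0 with intervals that miss it, and the intervals of Ppm1k and Ivd cross 0.

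Bcat1, the cytosolic aminotransferase (ENSMUSG00000030268.17, GRCm38 chromosome 6, 144993835 to 145076184, minus strand), fell the furthest of the 9. The authors' deposited table gives it a log2 fold of -3.07 ± 0.47 with a base mean of 139 (adjusted p = 7.99e-10). That fold leaves 11.9% of the EtOH level (95% interval, computed from the SE, 6.28 to 22.6%). With 3 libraries on each side, the base mean and fold imply about 29.6 normalised reads per library in OHT, against 248 in EtOH. The fold is taken as moderated towards 0, so this OHT level may be too high and the EtOH level too low. Percentages of EtOH, implied levels and their ratios here all rest on such folds and are approximate. When the authors' deposited table was ordered by fold, Bcat1 stood at rank 17 from the lowest of 13814 tested genes. Its error was wide for its abundance. The SE of 0.47 exceeded that of 93.4% of the 603 tested genes with a base mean between 0.8 and 1.25 times its own, whose median was 0.28 in the authors' deposited table.

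Bcat2, which encodes the mitochondrial aminotransferase (ENSMUSG00000030826.19, chromosome 7, 45570153 to 45589711, plus strand), fell less. Its base mean was 2145 and its log2 fold -0.77 ± 0.14 in the authors' deposited table (adjusted p = 2.23e-07). The OHT level was 58.5% of the EtOH level (95% interval 48.4 to 70.7%), and its interval on the log2 scale, -1.05 to -0.50, did not meet that of Bcat1, -3.99 to -2.14. Per kb of the longest transcript, Bcat2 had an implied level of 761 normalised reads in OHT and 1301 in EtOH, and Bcat1 had 3.78 in OHT and 31.7 in EtOH. The implied ratio of Bcat2 to Bcat1 per kb was therefore 201 in OHT and 41.0 in EtOH. With the union of all exons as the length it was 128 in OHT and 26.0 in EtOH. The mitochondrial gene was the more abundant in both groups.

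**Figure D2:**
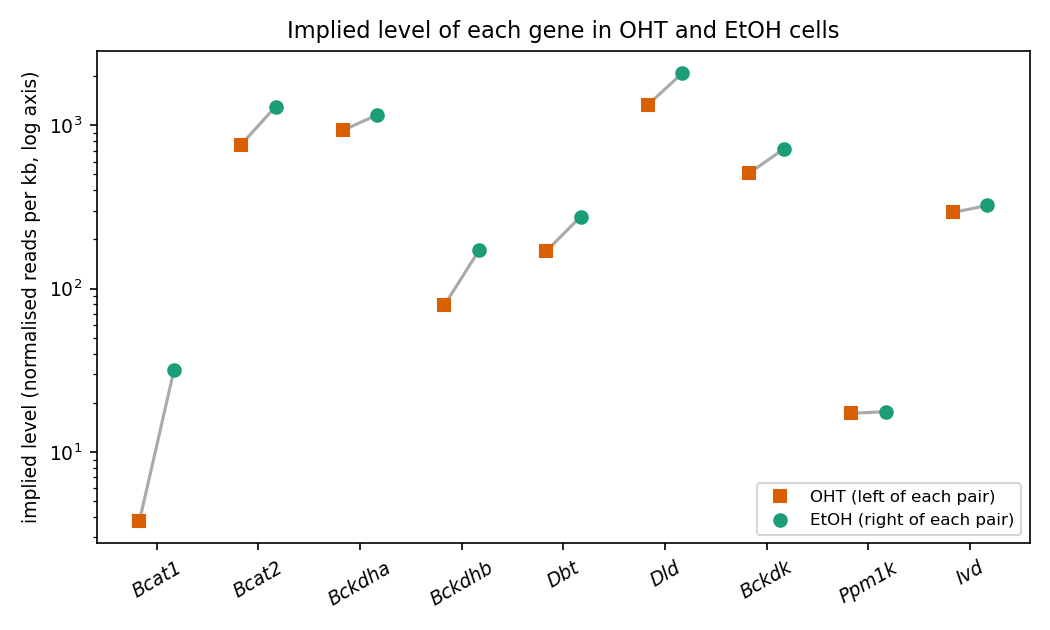
Implied level of each gene in OHT cells (squares, left of each pair) and EtOH cells (circles, right), in normalised reads per kb of the longest transcript on a log axis, computed from base mean and fold. Each point is a group level without a replicate spread. Bcat1 has the lowest OHT level at 3.78 and the steepest line, while the lines of Ppm1k and Ivd are nearly flat.

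The sequence before the start of both aminotransferase genes is shown because they differ so much in fold, with that of Bckdhb and Bckdha, the steepest and the shallowest fall in the dehydrogenase complex. These are the 250 bases before the start that RefSeq annotates furthest upstream in each gene, 5′ to 3′ on the gene's strand, on GRCm38.p6, with CCAAT boxes (CCAAT, or ATTGG on the other strand) and GC boxes (GGGCGG, or CCGCCC) in capitals.
Bcat1, chr6:145076158-145076407, minus strand: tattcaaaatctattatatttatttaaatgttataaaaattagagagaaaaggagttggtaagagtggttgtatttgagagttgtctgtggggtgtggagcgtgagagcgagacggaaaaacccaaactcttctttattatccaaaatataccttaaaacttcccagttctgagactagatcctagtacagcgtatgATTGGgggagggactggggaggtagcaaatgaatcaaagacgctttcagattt
Bcat2, chr7:45569903-45570152, plus strand: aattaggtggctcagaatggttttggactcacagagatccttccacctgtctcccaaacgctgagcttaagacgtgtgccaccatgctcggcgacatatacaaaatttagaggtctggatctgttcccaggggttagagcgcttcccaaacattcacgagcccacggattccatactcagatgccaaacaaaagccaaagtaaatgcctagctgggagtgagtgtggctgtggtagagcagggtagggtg
Bckdhb, chr9:83924887-83925136, plus strand: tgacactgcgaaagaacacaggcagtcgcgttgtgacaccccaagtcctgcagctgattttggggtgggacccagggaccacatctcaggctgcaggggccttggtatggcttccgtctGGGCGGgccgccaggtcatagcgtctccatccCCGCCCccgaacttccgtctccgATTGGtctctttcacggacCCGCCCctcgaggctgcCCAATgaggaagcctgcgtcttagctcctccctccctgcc
Bckdha, chr7:25658762-25659011, minus strand: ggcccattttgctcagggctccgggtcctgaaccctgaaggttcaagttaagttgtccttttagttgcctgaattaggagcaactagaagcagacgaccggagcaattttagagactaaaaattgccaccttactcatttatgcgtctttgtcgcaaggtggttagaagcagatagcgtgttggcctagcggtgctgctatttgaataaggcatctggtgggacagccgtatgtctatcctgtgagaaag
The GENCODE genes whose positions are given here start further upstream for 2 of them, so that 220 of the 250 bases for Bckdha and 27 for Bcat1 lie inside the gene. The Bcat1 window held 37.6% G and C and 5 CpG pairs, that of Bcat2 50.4% and 7, that of Bckdhb 63.2% and 15 and that of Bckdha 47.6% and 8, beside medians of 52.4% and 6 over 32851 windows. Bckdhb carried 3 GC boxes and 2 CCAAT boxes in the printed bases and Bcat1 1 CCAAT box, while those of Bcat2 and Bckdha carried neither.

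The windows of 8 catabolism genes, 11 windows of 250 bases before and 50 after a start, were searched on both strands for 4 motifs. Dbt has no window in the table used. The motif TGATGNAA, known as a site of ATF4 with C/EBP factors, was in 0 of the 8 genes and in 4.51% of all 27025 genes with a window. CACGTG, the E-box of MYC and MAX, was in 0 of the 8 and in 8.09% of all genes. CCAAT was in 6 of the 8 (Bcat1, Bckdhb, Bckdk, Dld, Ivd and Ppm1k) and in 41.1% of all genes, and GGGCGG in 2 of the 8 (Bckdhb and Ppm1k) and in 38.2%. A match describes these letters only, and its absence says nothing of a factor that binds elsewhere. The genes with CCAAT include both that did not pass the test.

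The dehydrogenase complex fell in all its subunits, by unequal amounts. Bckdha and Bckdhb encode the alpha and beta chains of its E1 decarboxylase, Dbt its E2 acyltransferase core and Dld the E3 lipoamide dehydrogenase that it shares with the pyruvate and 2-oxoglutarate complexes. Bckdhb (ENSMUSG00000032263.14, chromosome 9, 83925145 to 84124240, plus strand) was at -1.12 ± 0.24 on the log2 scale with a base mean of 185 in the authors' deposited table (adjusted p = 2.35e-05), which left 46.1% of the EtOH level (95% interval 33.1 to 64.3%). Dbt (ENSMUSG00000000340.10, chromosome 3, 116513070 to 116549981, plus strand) fell by 0.71 ± 0.18 in the authors' deposited table (base mean 735, adjusted p = 0.00025), to 61.2% of EtOH. Dld (ENSMUSG00000020664.10, chromosome 12, 31331277 to 31351453, minus strand), the most abundant of the 9, fell by 0.65 ± 0.16 in the authors' deposited table (base mean 4346, adjusted p = 0.00033), to 63.9% of EtOH. Bckdha fell the least.

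Bckdha (ENSMUSG00000060376.7, chromosome 7, 25629946 to 25658981, minus strand) was at -0.31 ± 0.14 on the log2 scale with a base mean of 1983 in the authors' deposited table. Its adjusted p of 0.044 in the authors' deposited table lies just inside the threshold, and the call was lost with the p-values adjusted over every gene that has one and with folds centred on the median of genes whose base mean is 100 or more. Its transcript shares 1171 exonic bases with B3gnt8 on the opposite strand. B3gnt8, a glycosyltransferase gene, was at 0.03 ± 0.21 on the log2 scale in the authors' deposited table (base mean 797, adjusted p = 0.93). How the counting treated strand is not stated in the sources at hand, so the value of Bckdha is uncertain. Bcat1 and Bcat2 share 337 and 622 exonic bases with antisense genes, Gm26666 and 0610005C13Rik.

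The alpha and beta chains, which form one heterotetramer, stood apart in fold. The 95% interval of Bckdhb, -1.60 to -0.64, lay below that of Bckdha, -0.58 to -0.05, on the log2 scale. The authors' deposited table gives no covariance between genes, and this difference was not tested. Per kb of the longest transcript, Bckdhb was implied at 79.2 normalised reads in OHT and 172 in EtOH, and Bckdha at 931 in OHT and 1157 in EtOH. Implied beta message per alpha message was 0.085 in OHT and 0.148 in EtOH. With the union of all exons as the length it was 0.070 in OHT and 0.121 in EtOH. The overlap with B3gnt8 leaves the level of Bckdha uncertain, and with it this ratio and the order of the subunits. Dbt, the core subunit, was implied at 169 per kb in OHT and 276 in EtOH, and Dld at 1332 in OHT and 2084 in EtOH, so that Dld per Dbt was 7.88 in OHT and 7.55 in EtOH. In both groups the order per kb of the longest transcript was Dld, Bckdha, Dbt and Bckdhb. With the union of all exons as the length, Dld lay just below Bckdha in OHT and above it in EtOH.

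Of the 2 genes that set the activity of the complex, the kinase passed the test and the phosphatase did not. Bckdk (ENSMUSG00000030802.14, chromosome 7, 127904082 to 127910221, plus strand), the inactivating kinase, fell by 0.49 ± 0.12 in the authors' deposited table (base mean 2091, adjusted p = 9.66e-05), to 71.1% of EtOH with a 95% interval of 60.7 to 83.3%. Ppm1k (ENSMUSG00000037826.5, chromosome 6, 57506502 to 57535468, minus strand), the activating phosphatase, was at -0.04 ± 0.27 on the log2 scale in the authors' deposited table, with an adjusted p of 0.93. The base mean of 97.1 was the lowest of the 9 in the authors' deposited table, and its interval of 67.2 to 142% of the EtOH level overlaps that of Bckdk. Overlap of intervals is not a test, and a difference between kinase and phosphatase was not tested. Per kb, kinase message per phosphatase message was implied at 29.6 in OHT and 40.6 in EtOH.

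Ivd (ENSMUSG00000027332.11, chromosome 2, 118861954 to 118882909, plus strand), isovaleryl-CoA dehydrogenase, takes the leucine path onward from the complex. Its base mean was 1128 and its log2 fold -0.14 ± 0.13 in the authors' deposited table (adjusted p = 0.37), so its level in OHT was between 76.1 and 108% of that in EtOH. The error was narrow: only 13.0% of 1532 genes of like base mean had a smaller SE in the authors' deposited table. The intervals of Dbt, 48.1 to 77.9% of EtOH, and of Dld, 51.1 to 80.0%, meet the lower end of that of Ivd. Those of Bckdha and Bckdk meet it too. Overlap of intervals is not a test, and differences of Ivd from the other genes were not tested. The intervals of Bcat1, 6.28 to 22.6%, Bcat2, 48.4 to 70.7%, and Bckdhb, 33.1 to 64.3%, lie below that of Ivd.

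**Figure D3:**
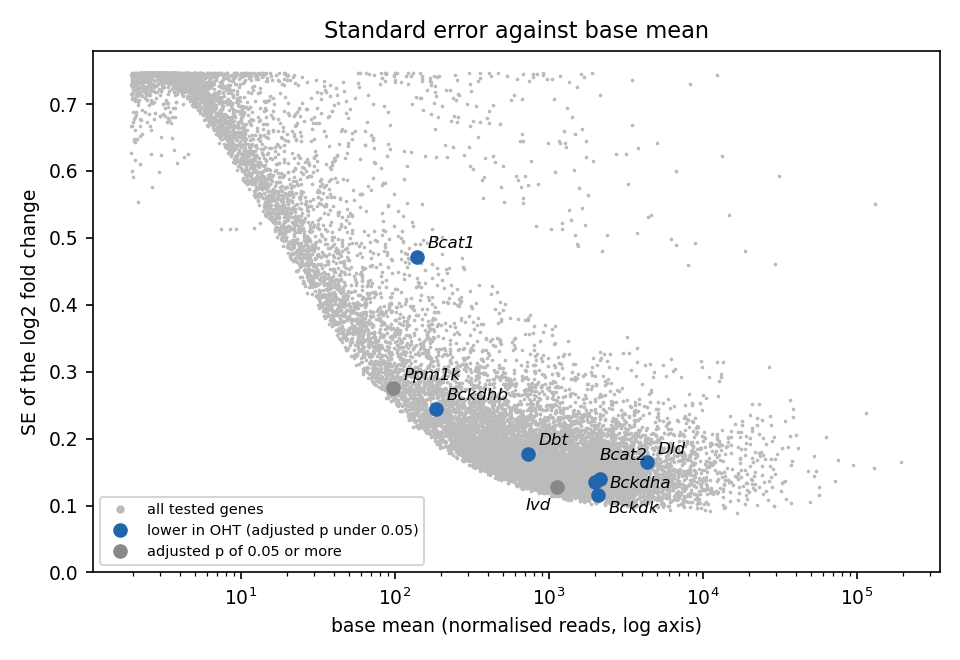
Standard error of the log2 fold change against base mean (log axis) for all tested genes (grey points) and the 9 catabolism genes (large points), both from the authors' deposited table. Bcat1 lies in the upper part of the grey band at its base mean of 139. Bckdk and Ivd lie near the lower edge of that band.

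Further down, the paths of the 3 amino acids each have an acyl-CoA dehydrogenase, and these 3 genes had different outcomes. Acadsb, which serves isoleucine, rose by 0.54 ± 0.15 in the authors' deposited table, and Acad8, which serves valine, fell by 0.52 ± 0.14 there, while Ivd of leucine did not pass. The 95% intervals were 0.25 to 0.83 for Acadsb, -0.79 to -0.24 for Acad8 and -0.39 to 0.11 for Ivd. That of Acadsb meets neither of the others. The 20 genes listed for the paths downstream of the complex, without Ivd, include the cobalamin genes Mmaa, Mmab, Mmachc and Mmadhc, which are not steps of these paths. Of the 20, 12 fell, 1 rose and 7 did not pass, with a median log2 fold change of -0.39. That is 60% fallen and 5% risen, beside 23.4% and 25.5% of all tested genes. These genes were listed with such values known.

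For leucine, 1 of 4 further genes fell, Mccc1 of methylcrotonyl-CoA carboxylase (-0.58 ± 0.17 in the authors' deposited table). Among 4 isoleucine genes, the hydratase Echs1, which also serves valine, fell by 0.89 ± 0.12, Hsd17b10 fell by 0.69 ± 0.14 and the thiolase Acat1 was at -0.24 ± 0.14 (adjusted p of 0.15) by the authors' deposited table. Of 4 valine genes, Acad8 and the hydrolase Hibch (-0.57 ± 0.15) fell and Hibadh was at -0.28 ± 0.21 (adjusted p of 0.27) by the authors' deposited table. Isoleucine and valine both yield propionyl-CoA, and in its list 7 of 8 genes fell (87.5%, beside 23.4% of all tested genes) and 0 rose. These include Pccb of propionyl-CoA carboxylase (-0.64 ± 0.14) and the cobalamin genes Mmachc (-1.14 ± 0.20), Mmab (-0.65 ± 0.16) and Mmadhc (-0.34 ± 0.14) in the authors' deposited table.

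**Figure D4:**
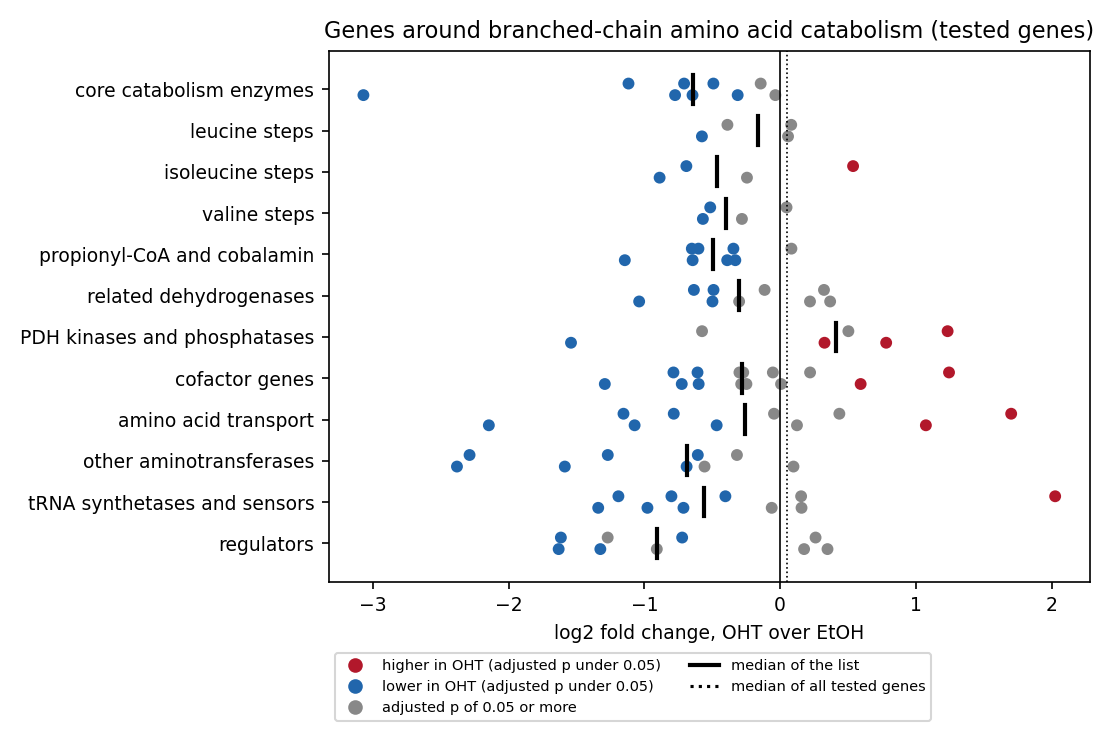
Log2 fold change of OHT over EtOH for each tested gene of the 9 core enzymes and of 11 surrounding lists, from the authors' deposited table. Blue points fell, red points rose and grey points had an adjusted p of 0.05 or more, and bars mark list medians. The core enzymes span -3.07 to -0.04 with no red point, and the list of pyruvate dehydrogenase kinases and phosphatases has 3 red points and 1 blue point.

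Over the 87 tested genes of the 11 surrounding lists, 49.4% fell, 10.3% rose and 59.8% passed in either direction, beside 23.4, 25.5 and 48.9% of all tested genes. The lists were chosen with such values known, and no list was tested as a whole. Uptake of the substrates showed both directions. Of 10 tested transporter genes, 5 fell and 2 rose, with a median of -0.26. Slc7a5 and Slc3a2, the 2 chains of the LAT1 exchanger for leucine, fell by 1.15 ± 0.15 and 0.47 ± 0.21 in the authors' deposited table, the second with an adjusted p of 0.047 that was lost under the same 2 settings as Bckdha. Slc1a5, a glutamine transporter, fell by 1.07 ± 0.16 there. The leucine transporters that rose in the authors' deposited table were Slc43a2 (1.07 ± 0.23) and Slc7a8 (1.70 ± 0.54), the second with a wide error. Named after their values were seen, Slc43a1, also a leucine transporter, fell by 2.15 ± 0.51, and Slc25a44, the mitochondrial carrier of these amino acids, had 0.12 ± 0.15 in the authors' deposited table.

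Among other genes that share 2-oxoglutarate and glutamate with the BCAT pair, 6 of 9 tested fell and 0 rose, with a median of -0.69. Oat, Kyat1 and Glud1 did not pass, and the called share was 66.7%, against 48.9% of all tested genes. The phosphoserine enzyme Psat1 (-2.29 ± 0.11), the alanine enzyme Gpt2 (-2.38 ± 0.23) and the aspartate enzyme Got1 (-1.27 ± 0.21) had the 3 lowest Wald scores of the list in the authors' deposited table, where Kyat3, with a steeper fold than Got1 of -1.59 ± 0.27, came next. The fold of Bcat1 lay below all of theirs. On the log2 scale its interval, -3.99 to -2.14, meets those of Gpt2, -2.82 to -1.94, and Psat1, -2.49 to -2.08. Overlap of intervals is not a test, and a difference of Bcat1 from Gpt2 and Psat1 was not tested. The intervals of Kyat3, -2.11 to -1.06, and Got1, -1.68 to -0.86, lie above that of Bcat1. Of 10 genes that load or sense branched-chain amino acids, 6 fell and 1 rose. Their called share was 70%, against 48.9% of all tested genes. The cytosolic tRNA synthetases Lars, Iars and Vars fell by 1.34 ± 0.12, 1.19 ± 0.15 and 0.98 ± 0.18 in the authors' deposited table. There the mitochondrial Lars2 had -0.06 ± 0.29 (adjusted p = 0.88), and the sestrin Sesn3, with a base mean of 27.2 over both groups, rose by 2.03 ± 0.50.

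Complexes built like the ketoacid dehydrogenase were set beside it. Of 9 tested genes of the pyruvate, 2-oxoglutarate, 2-oxoadipate and glycine complexes, 4 fell and 0 rose, with a median of -0.30. The called share was 44.4%, against 48.9% of all tested genes, 23.4% of which fell. Pdha1 and Pdhb, the alpha and beta chains of pyruvate dehydrogenase, fell by 0.49 ± 0.12 and 0.64 ± 0.17, the lipoyl carrier Gcsh fell by 1.04 ± 0.19, and Dlst of the 2-oxoglutarate complex was at -0.11 ± 0.10 (adjusted p of 0.38) by the authors' deposited table. The pyruvate dehydrogenase kinases, relatives of Bckdk, split: Pdk1 fell by 1.54 ± 0.17 while Pdk2 and Pdk3 rose by 1.23 ± 0.28 and 0.33 ± 0.13 in the authors' deposited table. Of the 6 tested genes of that list 3 rose and 1 fell, a called share of 66.7% against 48.9% of all tested genes. Of 14 cofactor genes, 5 fell and 2 rose, a called share of 50% against 48.9% of all tested genes. The lipoyl transferase Lipt2 (-1.29 ± 0.25) and the electron carrier Etfb (-0.72 ± 0.11) fell, and the thiamine transporter Slc19a2 (1.24 ± 0.21) and the biotin ligase Hlcs (0.59 ± 0.24) rose in the authors' deposited table.

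Several known regulators of these enzymes fell in the same comparison. MYC and ATF4 are transcription factors described as activators of BCAT1, MSI2 is an RNA-binding protein reported to bind BCAT1 transcripts in human leukaemia, and EZH2 is a histone methyltransferase reported to repress Bcat1. Of the 9 tested genes of that list 4 fell and 0 rose: Myc (-1.63 ± 0.11), Atf4 (-1.61 ± 0.14), Msi2 (-1.32 ± 0.18) and Ezh2 (-0.72 ± 0.15, named after its value was seen) in the authors' deposited table. Hif1a, Acly, Klf15, Ppargc1a and Mlxipl of that list were tested and did not pass. The called share of the list was 44.4%, against 48.9% of all tested genes, 23.4% of which fell. The part of these regulators in the fall of Bcat1 was not tested.

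The label of the cells was checked on markers. The leukaemia and progenitor markers Meis1, Hoxa9, Hoxa10 and Myb had base means of 1648 to 6597 in the authors' deposited table, and 7 of the 10 markers of that list fell, with summed implied levels of 55005 normalised reads in OHT and 183706 in EtOH. The granule protein genes Mpo, Ctsg and Elane carry most of these sums, and the other 7 markers summed to 12916 in OHT and 18311 in EtOH, or 70.5%. Kit (0.31 ± 0.26) and Cd34 (1.05 ± 0.60) had positive folds that did not pass in the authors' deposited table. All 11 tested markers of mature neutrophils and macrophages, of 12 listed, rose, with sums of 855924 in OHT and 180969 in EtOH. This shift moved with the fall of the catabolism genes, and its part in it was not tested. Lymphoid markers summed to 288 in OHT and 385 in EtOH, with Cd3e, Cd8a and Ms4a1 at 0 and Nkg7 holding nearly all of it. Of the 2 tested, Cd79a (1.95 ± 0.71, base mean 9.49) rose and Nkg7 did not pass in the authors' deposited table. Erythroid and megakaryocyte markers summed to 7937 in OHT and 6840 in EtOH, with Hba-a1 and Hbb-bt at 0. Tfrc, which did not pass, carries most of this sum, while Vwf (3.82 ± 0.20) and Gp1bb (2.17 ± 0.54), both made by megakaryocytes, rose and 0 of 8 tested fell in the authors' deposited table. Stromal and endothelial markers summed to 1967 in OHT and 1617 in EtOH, with Dcn at 0. Pecam1, which did not pass, carries most of these sums, at an implied 1708 in OHT and 1449 in EtOH. Of the 5 tested, Col1a1 (1.48 ± 0.55) and Acta2 (0.69 ± 0.30) rose and 0 fell in the authors' deposited table. Pdgfra (0.93 ± 0.72) and Pdgfrb (-0.18 ± 0.62) did not pass there. Col1a2 and Col3a1, with base means of 0.089 and 0.31, have no adjusted p. The part of these markers in the folds of the catabolism genes was not tested.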

How the data were processed

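Per the submitters' processing notes, the build was mm10 and the tools were DESeq2, DESeq, HTSeq 0.9.1, STAR 2.7.2b and Trimmomatic 0.38.0; annotation and counting options are not stated in the sources at hand. The authors deposited 6 values per gene: the base mean, which is a signal in normalised reads, the log2 fold change, its SE on the log2 scale, the Wald score, the p-value and its adjusted form. Column identities were checked on the values: score equals fold over SE within 7.56e-08, and adjusted p equals a Benjamini-Hochberg adjustment over 13814 genes within 2.33e-07. No SE exceeds 0.747, so folds are taken as moderated towards 0 and understate changes of low or variable genes. No test of samples was possible here.

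Group levels were implied from base mean and fold. Because the folds are taken as moderated, these levels are approximate, most of all for low or variable genes. Gldc, with 0 reads in each EtOH library, still had an implied EtOH level of 0.786. Intervals at 95% come from the authors' SE. Reads per library behind base means of at most 5 were solved as whole numbers within 5e-09, for 4645 of 4645 genes, a method also tested on simulated data. Lengths and positions come from GENCODE M21 (GRCm38, the assembly of mm10). Python 3.11.15, numpy 2.4.6, pandas 2.3.3 and scipy 1.17.1 were used.

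Members and lists were chosen with earlier results of these data known. Genes named beside the 9 are, per list, the 3 largest absolute scores past the threshold of 0.05, the highest base mean and calls against the list's majority; some genes are not reported here. Listed genes were matched by symbol, 4 through an older name. The 27 names turned into dates by a spreadsheet were not used.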

Additional observations from a re-analysis of the deposited data

How the results depend on the processing

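No paired analysis was possible because the deposited table holds no values per sample; for the same reason no replicate was left out, and no count test or other normalisation of counts was run. Of the 9 catabolism genes, between 5 and 7 fell and 0 rose under the 7 alternatives. An adjusted p under 0.01, adjustment over every gene with a p-value and centring on the median of genes whose base mean is 100 or more (-0.021) each left 6, without Bckdha. An absolute log2 fold of at least 0.5 left 5, without Bckdha and Bckdk. The 52 calls of the surrounding lists came to between 42 and 56. No share of all genes is given at these settings. The counts therefore show only whether the calls of these genes held, and are not set against a background. With the union of all exons as the length, which differs by construction, base means per kb were 550 for Bcat2 and 103 for Bckdhb. They were 1180 for Dld, 566 for Bckdk and 205 for Ivd. The longest transcript gave 1031, 125, 1708, 614 and 308 in the same order of genes. By base mean the order of the complex subunits did not change, but by implied level Dld no longer led Bckdha in OHT. With an SE above 0.5 not called, Slc7a8, Slc43a1 and Sesn3 lost their calls. Depth per library is unknown for the 9 genes. The fold of Bcat1 rests on an implied 29.6 normalised reads per OHT library, a level that may be too high because the fold is taken as moderated.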

Other observations

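Genes with a base mean of at most 5 are given here in whole reads per library, in the order of size factors 1.88, 1.01 and 0.697 for OHT and 1.11, 0.870 and 0.783 for EtOH. Klf15, a transcription factor known to raise branched-chain amino acid catabolism genes in muscle, had 2, 0 and 0 reads in OHT and 4, 3 and 5 in EtOH, and its adjusted p in the authors' deposited table was 0.15. Ppargc1a, a coactivator of mitochondrial genes, had 10, 2 and 4 reads in OHT and 3, 3 and 2 in EtOH. Gldc, the decarboxylase of the glycine complex that also uses Dld, had 2, 1 and 3 reads in OHT and 0, 0 and 0 in EtOH, and the table gives it no adjusted p. Dhtkd1, a 2-oxoadipate dehydrogenase gene, had 4, 4 and 4 reads in OHT and 2, 4 and 1 in EtOH.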
